A study of Homo sapiens with 4 samples.

Results

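The transcriptome of DU145 cells carrying an shRNA against ESS2 was compared with that of DU145 cells carrying a control shRNA. DU145 is an established human prostate cancer cell line that grows without androgen. Of the 4 arrays of the series, the 2 DU145 arrays were chosen by their labels, 1 for each condition, and the other 2 hold PC3 cells. DU145-shC cells were transduced with an shRNA against luciferase, a target that human cells lack, and DU145-shESS2 cells with an shRNA against ESS2. The design text describes both as lentiviral. Both cultures were kept in RPMI1640 medium with fetal bovine serum, and 0.1 µg of total RNA from each was labelled with Cy3 and hybridized to an Agilent human gene expression array. The number of shRNA sequences, clones and cultures behind each DU145 array is not given in the sources used here. An effect of ESS2 loss therefore cannot be told apart from other effects of the shRNA, of selection or of the culture. With 1 array for each condition, no difference has a replicate check, no p-value is given, and precision is limited by how few arrays there are. Of the 58201 non-control probes of the array, 27902 were well above background on both DU145 arrays, and those with a gene symbol represented 15956 of the 25122 genes named on the array, 13539 of them protein coding. A gene with several such probes was represented by its brightest one.

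ESS2, also called DGCR14, is a nuclear protein encoded in the 22q11 region and found with spliceosomes and with transcription regulators. Several gene programmes below have a known master regulator. NF-κB dimers are held in the cytoplasm by IκB proteins and, once released, switch on chemokines, cytokines and their own inhibitors. SREBP factors switch on cholesterol synthesis when sterols in the endoplasmic reticulum are low. The interferon programme is driven by STAT and IRF factors, and the genes of mitosis are repressed outside their phase of the cell cycle by a complex that binds their promoters.

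ESS2 itself gave a signal of 85.7 in DU145-shC cells and of 17.3 in DU145-shESS2 cells, both well above background. After each array was scaled to its own 75th percentile, ESS2 fell by 2.35 on the log2 scale. In the PC3 cells of the same series, ESS2 gave 133 in the control and 53.6 in the knockdown, a log2 ratio of -1.45. Of 12 reference genes, 9 had a ratio below 0 in DU145 cells and none passed 2-fold, with GAPDH at 0.04, ACTB at -0.04 and TFRC lowest at -0.58. As to the identity of the cells, CTNNA1 (α-catenin), which PC3 cells have lost, was well above background on both DU145 arrays and on neither PC3 array, with DU145 signals of 4320 and 4810. The prostate lineage gene KLK3 (prostate-specific antigen) was not well above background on any of the 4 arrays. The epithelial keratins KRT18 (20100 and 20200), KRT19 (31900 and 39100) and KRT7 (72400 and 62400) were bright on both DU145 arrays, in this order control and knockdown, as in all pairs of signals below. Few markers of other cell types were measured: 5 of 15 leukocyte markers, 3 of 8 endothelial markers and 3 of 10 fibroblast markers, and none of them passed 2-fold. Among the leukocyte markers CD79A was the brightest, with signals of 1620 and 1310, and CD14 gave 172 and 274.

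The signal distributions of the DU145 arrays were alike, with 75th percentiles of 212 and 218 and with 51.9% and 52.6% of the non-control spots well above background. No non-control spot was saturated. Across the 15956 genes, the median log2 ratio of DU145-shESS2 over DU145-shC was -0.03, and 90% of genes lay between -0.70 and 0.65. In all, 279 genes (1.75%) were more than 2-fold higher in DU145-shESS2 cells and 274 genes (1.72%) more than 2-fold lower. At 1.5-fold these shares were 6.11% higher and 7.50% lower, and 53.4% of genes had a ratio below 0 and 46.6% above it. These 6 shares are the background against which the counts for gene groups below are set. In the following, "rose" and "fell" are used of genes past 2-fold. Among 283 probes spotted 10 times on each array, the log2 ratio varied between spots with a median SD of 0.08 and a highest SD of 0.31. That spread covers neither labelling, hybridization nor cells, so a difference beyond it cannot be assigned to the cells. A background correction by the normexp method with an offset of 50, which draws dim signals together, left 134 genes higher and 73 lower, so that 64.7% in place of 50.5% of those past 2-fold were higher, and put ESS2 at -1.13.

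**Figure D1:**
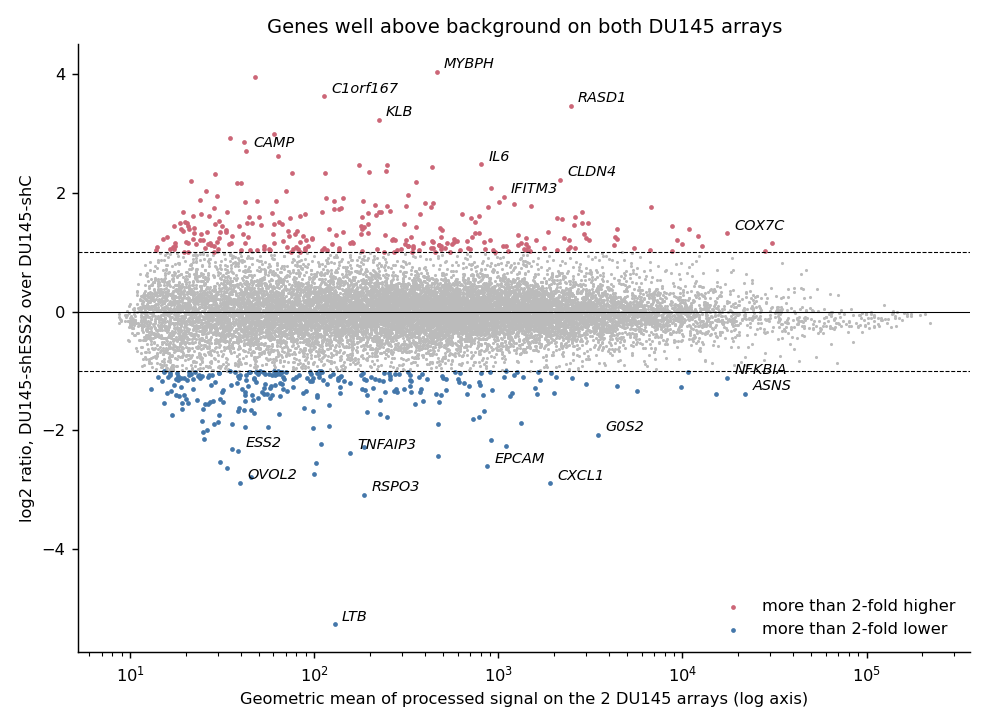
Each point is 1 of the 15956 genes well above background on both DU145 arrays, placed by the geometric mean of its processed signals (log axis, arbitrary units) and by its log2 ratio of DU145-shESS2 over DU145-shC. Dashed lines mark 2-fold; 279 genes lie above and 274 below, LTB lies lowest at -5.27 and MYBPH highest at 4.04.

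The share of genes past 2-fold depended on how bright they were. Of 4 bins of equal size, the dimmest, with mean signals from 8.69 to 82.8, had 6.12% of genes past 2-fold, and the following bins had 3.66%, 2.43% and 1.65%. Among the 2513 genes under a signal of 50 on both arrays, 104 passed 2-fold, and they make up 18.8% of the 553 genes past 2-fold. The 6 repeated probes with a mean signal under 50 had a median SD between spots of 0.25, which is above that of the brighter ones. At the bright end, the 200 brightest genes, 71 of them cytoplasmic ribosomal proteins, stayed within log2 ratios of -0.86 and 0.82, and 161 of them had a ratio below 0. Above a signal of 10000 on both arrays lay 607 genes, of which 3 rose and 2 fell. The falls were ASNS (asparagine synthetase), from 35000 to 13800 on the brightest of 3 probes that disagreed, and NFKBIA (the NF-κB inhibitor IκBα), from 25501 to 12061. The rises were COX7C, a cytochrome c oxidase subunit, from 10874 to 27911, the surface protein gene TM4SF1 from 20200 to 46100 and the calcium-binding protein gene CHP1 from 19524 to 40520. Of the 98 genes past 2-fold that had several measured probes, 47 had every probe past 2-fold and 10 had probes in both directions.

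The deepest falls included genes of inflammatory signalling and epithelial genes, beside others. LTB (lymphotoxin β, a membrane-bound TNF family cytokine) went from 794 to 21.1, a log2 ratio of -5.27 and the lowest of all genes measured. RSPO3, a secreted amplifier of WNT signalling, went from 536 to 64.9, and both of its probes lay near -3.0 (-3.09 and -2.98). The neutrophil-attracting chemokine CXCL1 went from 5130 to 708 (-2.90), and its second probe stood at -2.12. CXCL1 and RSPO3 thus had every measured probe past 4-fold lower, while LTB has 1 probe. Among epithelial genes, the transcription factor gene OVOL2 went from 106 to 14.7 (-2.89), the basement membrane anchor gene LAD1 from 82.6 to 13.7 (-2.63) and the adhesion molecule gene EPCAM from 2120 to 357 (-2.61). KISS1R, the kisspeptin receptor, went from 118 to 17.6 (-2.79). The secreted siderophore-binding protein gene LCN2 went from 243 to 42.8 (-2.55). EPCAM and CXCL1 stand out from the others in this group by their level, being above the 75th percentile on both arrays. DBF4B, a regulator of the replication kinase CDC7, stood at -2.54, the neuronal pentraxin gene NPTX1 at -2.32 and the leukocyte receptor gene VSTM1 at -2.28. Other bright genes that fell were PLS3 (the actin bundler plastin 3) at -2.26, G0S2 (an inhibitor of fat breakdown) from 7060 to 1720 at -2.08, IL32 at -1.89 and the antisense RNA DCST1-AS1 from 2500 to 697 at -1.88.

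The steepest rises included the cytokine genes IL6 and IL24, described below. MYBPH, a myosin-binding protein of muscle, went from 112 to 1900, a log2 ratio of 4.04. RASD1, a Ras-related G protein first known as a glucocorticoid-induced gene, went from 734 to 8326 (3.46), the largest rise among genes above the 75th percentile on both arrays. KLB (β-klotho, the co-receptor for endocrine FGF hormones) went from 71.9 to 695 (3.23), with a second probe at 2.92. KLB thus had both probes past 4-fold higher, while MYBPH and RASD1 are represented by 1 probe each. C1orf167 went from 31.6 to 401 (3.63), the lncRNA LOC651337 from 11.9 to 189 (3.95) and the tropomodulin gene TMOD1 from 12.4 to 96.9 (2.93). CAMP, the antimicrobial peptide cathelicidin, went from 16.4 to 110 (2.71), TXNIP, a glucose-responsive inhibitor of thioredoxin, from 73.5 to 418 (2.47), and the selenium carrier gene SELENOP from 104 to 591 (2.47). Probes disagreed for RAP1GAP, a GTPase-activating protein, where 1 stood at 2.99 and the other at 0.10, and for SYNE1, a nuclear envelope spectrin repeat protein, at 2.44 and 0.54.

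Genes of the NF-κB circuit lay lower in DU145-shESS2 cells, the deepest falls being those of LTB and of chemokines. Of 28 measured NF-κB subunits and feedback genes, 4 fell (14.3% against 1.72% of all genes), none rose and 23 had a ratio below 0 (82.1% against 53.4%). Their median was -0.45 against -0.03 over all genes, and -0.26 with normexp, under which 3 fell. Among the inhibitors that NF-κB itself induces, TNFAIP3 (A20, a deubiquitinase) went from 352 to 69.3 (-2.38) and NFKBIA from 25501 to 12061 (-1.12). BIRC3, which encodes an inhibitor of apoptosis that acts in the TNF receptor complex, went from 725 to 345 (-1.11, and -0.94 with normexp). The subunits did not pass 2-fold. RELB had signals of 5010 and 2830 (-0.86), NFKB1 of 990 and 643 (-0.66), NFKB2 of 270 and 180 (-0.63) and RELA, which encodes p65, of 904 and 1010 (0.12). RELA thus lay slightly above 0 while the genes of its partner subunits lay below it. The adhesion molecule gene ICAM1 had signals of 1983 and 1151 (-0.82).

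Of 17 measured chemokines, 4 fell (23.5% against 1.72% of all genes), 1 rose and 12 had a ratio below 0. Besides CXCL1, CCL20, which attracts CCR6-bearing lymphocytes, went from 255 to 39.1 (-2.75). CXCL8 (interleukin 8) went from 1900 to 435 (-2.17), and CXCL2 from 24400 to 9530 (-1.40). The related CXCL6 (-0.92) and CXCL3 (204 and 123, -0.77) also lay below 0 but within 2-fold. CXCL5 had signals of 152 and 175 (0.16), so the neutrophil chemokines did not all lie lower. CXCL14 rose from 9.89 to 46.7, near the lower end of what was well above background. CSF2 (GM-CSF, a growth factor for myeloid cells) was well above background in DU145-shC cells only, with signals of 106 and 4.20, and was at least 13.4-fold lower in DU145-shESS2 cells, taking the dim signal or the lowest signal well above background, whichever was higher. TNF, the inflammatory cytokine whose receptor activates NF-κB, was treated in the same way and was at least 4.37-fold lower, with signals of 34.6 and 3.98. MIR3142HG, the RNA from which the NF-κB-induced miR-146a is made, was likewise at least 10.2-fold lower, with signals of 80.5 and 2.99. SAA2, an acute-phase serum amyloid gene, was at least 8.09-fold lower, with signals of 68.8 and 8.75, and its near-identical relative SAA1, whose probe may read both, fell from 81 to 21.6.

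The κB site, the DNA element that NF-κB dimers bind, was searched on both strands in the 300 bases from 250 before to 50 after the start of each gene, as RefSeq gives it on GRCh38.p14. It occurred in 9 of the 24 NF-κB subunit and feedback genes that have such a window (37.5%), in 6 of 14 chemokines (42.9%) and in 5.72% of all 27305 windows. It was present in each of the 4 feedback genes that fell, in 5 of the 20 that stayed within 2-fold and in 3 of the 4 chemokines that fell. Feedback genes with a site had a median log2 ratio of -0.66 and those without of -0.34, and chemokines had medians of -1.16 and -0.17. CXCL8 and CSF2 held no match in this window to the form of the site that was searched, which does not exclude a site with other letters. A match is a description of the letters and not a measurement of binding. The feedback list was named for NF-κB, chemokines are among its known targets, and both lists were chosen with earlier results of these data known. The shares and medians therefore describe the lists, and a link between site and ratio was not tested. The sites of 6 genes that fell are shown with IL6, a gene that rose, because their letters can be compared beside opposite log2 ratios. Capitals mark matched bases, including part of a second match at the left end of the TNFAIP3 window, and every sequence reads 5′ to 3′ on the strand of the gene.
CXCL1 (chr4:73869305-73869334, + strand, log2 ratio -2.90): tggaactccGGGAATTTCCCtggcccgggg
CXCL2 (chr4:74099253-74099282, - strand, log2 ratio -1.40): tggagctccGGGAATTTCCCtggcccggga
CCL20 (chr2:227813753-227813782, + strand, log2 ratio -2.75): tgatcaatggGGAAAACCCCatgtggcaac
LTB (chr6:31582492-31582521, - strand, log2 ratio -5.27): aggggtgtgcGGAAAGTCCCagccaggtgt
TNFAIP3 (chr6:137867194-137867223, + strand, log2 ratio -2.38): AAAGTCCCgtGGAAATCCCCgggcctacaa
NFKBIA (chr14:35404811-35404840, - strand, log2 ratio -1.12): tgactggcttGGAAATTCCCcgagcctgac
IL6 (chr7:22727117-22727146, + strand, log2 ratio 2.48): tatcaaatgtGGGATTTTCCcatgagtctc
The fully shown matches of genes that fell, which are those nearest the start, begin between 86 and 55 bases before the start of the gene and that of IL6 at 73 bases, while the nearer of 2 matches of BIRC3, which is not shown, begins 135 bases before it.

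Cytokines moved in both directions. IL6, which signals through gp130 to STAT3, went from 336 to 1930 (2.48), and IL24, a cytokine of the interleukin 10 family, from 107 to 568 (2.37), with a second probe at 2.14. IL32 went from 892 to 248 (-1.89), and its second probe stood at -1.61. These were the 3 interleukins and colony-stimulating factors past 2-fold of 17 measured on both arrays, whose median was -0.01. LIF, another gp130 cytokine, had signals of 3030 and 2440 (-0.35), and IL11 of 1450 and 1620 (0.12), so that the rise of IL6 was not matched by its relatives. Of 29 cytokine receptors none passed 2-fold. In the TNF superfamily, TNFRSF9 (the co-stimulatory receptor 4-1BB) fell from 105 to 43.5 together with LTB, and 18 of 25 members had a ratio below 0. Among 21 acute-phase and S100 genes, 4 rose and 3 fell. SLPI (an epithelial protease inhibitor) rose from 231 to 809, HP (haptoglobin) from 17.7 to 82.2, S100A9 from 15.3 to 52.8 and S100A4 from 877 to 2010, whereas LCN2, SAA1 and WFDC2 (from 452 to 136) fell.

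Interferon-stimulated genes split into a group that rose and a smaller one that fell. Of 42 measured, 8 rose and 3 fell (7.14% against 1.72% of all genes), and the median was 0.02. OASL, an antiviral protein related to oligoadenylate synthetases, went from 164 to 770 (2.19). The 3 antiviral IFITM genes of the list, which block virus entry at membranes, rose: IFITM3 from 541 to 2120 (1.93), IFITM1 from 73.0 to 284 (1.92) and IFITM2 from 640 to 2300 (1.81). Because these 3 genes are near-identical in part, a probe may read more than 1 of them. Of the IFIT genes, whose proteins bind foreign RNA, IFIT5 stood at -0.28 and the 3 others measured rose, with IFIT2 from 208 to 760 (1.83), IFIT3 from 68.9 to 236 (1.74) and IFIT1 from 810 to 2040 (1.29). ISG15, a ubiquitin-like modifier, had signals of 2740 and 5400 (0.94). In the other direction, the RNA sensor gene IFIH1 (MDA5) went from 176 to 77.7 (-1.22), OAS3 from 97.9 to 46.7 (-1.11) and HERC6 from 40.0 to 19.6 (-1.07, with another probe at -0.44), while MX1 had signals of 301 and 163 (-0.93). With normexp none of the list was more than 2-fold lower and 7 genes were more than 2-fold higher. STING1, the adaptor of the cytosolic DNA sensing pathway, rose from 1560 to 5160 (1.69), and the kinase gene IKBKE fell from 21.4 to 10.8. CGAS, the DNA sensor upstream of STING1, had signals of 643 and 541 (-0.29).

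The interferon-stimulated response element was searched as the letters GAAANNGAAA on both strands of the same windows. It occurred in 22 of the 33 interferon-stimulated genes with a window (66.7%) and in 3.65% of all windows. Of the 8 genes that rose, 4 have a window and all of these hold the element, and of the 3 that fell 2 hold it. The list was named for this programme, so the share of the element describes the list and not its response. Genes with the element had a median log2 ratio of 0.03 and those without it of -0.11. The elements of 3 genes that rose are shown, with the bases of a match on either strand in capitals. Capitals at the left end of the IFIT1 and IFITM3 windows belong to a second match that the window cuts.
IFIT1 (chr10:89392510-89392539, + strand, log2 ratio 1.29): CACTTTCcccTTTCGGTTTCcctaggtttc
IFIT3 (chr10:89327865-89327894, + strand, log2 ratio 1.74): tttaaattagTTTCACTTTCcagtttcctc
IFITM3 (chr11:320876-320905, - strand, log2 ratio 1.93): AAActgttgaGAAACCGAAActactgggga

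Genes of antigen presentation also moved apart. Of 24 MHC class I and processing genes, 1 fell and 17 had a ratio below 0. The immunoproteasome subunit gene PSMB9 went from 873 to 437 (-1.04), and its partner PSMB8 had signals of 349 and 191 (-0.91). The peptide transporter genes TAP2 and TAP1 stood at -0.77 and -0.37, and the class I heavy chain genes HLA-B and HLA-C both at 0.26. The median of all 37 measured proteasome genes was 0.00. Of 8 class II genes, 7 had a ratio above 0, and HLA-DMA, which loads peptides onto class II molecules, rose from 392 to 917 (1.19).

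Immediate-early transcription factor genes, which cells switch on within minutes of a stimulus, were higher as a group. Of 28 measured, 9 rose (32.1% against 1.75% of all genes), none fell and 21 had a ratio above 0, with a median of 0.45. All 3 NR4A orphan nuclear receptor genes were among them, with NR4A3 from 438 to 1910 (2.08), NR4A2 from 211 to 675 (1.64) and NR4A1 from 28.6 to 88.5 (1.59). EGR2 went from 94.6 to 356 (1.87), FOS from 1810 to 5260 and FOSB from 72.6 to 197 (1.40). MAFK, EGR4 and JUNB rose by smaller amounts, at 1.10, 1.06 and 1.06. The highly abundant members EGR1 (10200 and 16500, 0.65) and IER2 (36200 and 60600, 0.70) did not pass 2-fold. JUN (1670 and 1650, -0.06) and FOSL1 (904 and 675, -0.46) lay at or below 0, so that the AP-1 family did not move together. The cAMP response element TGACGTCA occurred in 2 of the 20 members with a window and in 1.98% of all windows. Of 28 MAPK feedback genes none passed 2-fold, and their median was -0.12.

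**Figure D2:**
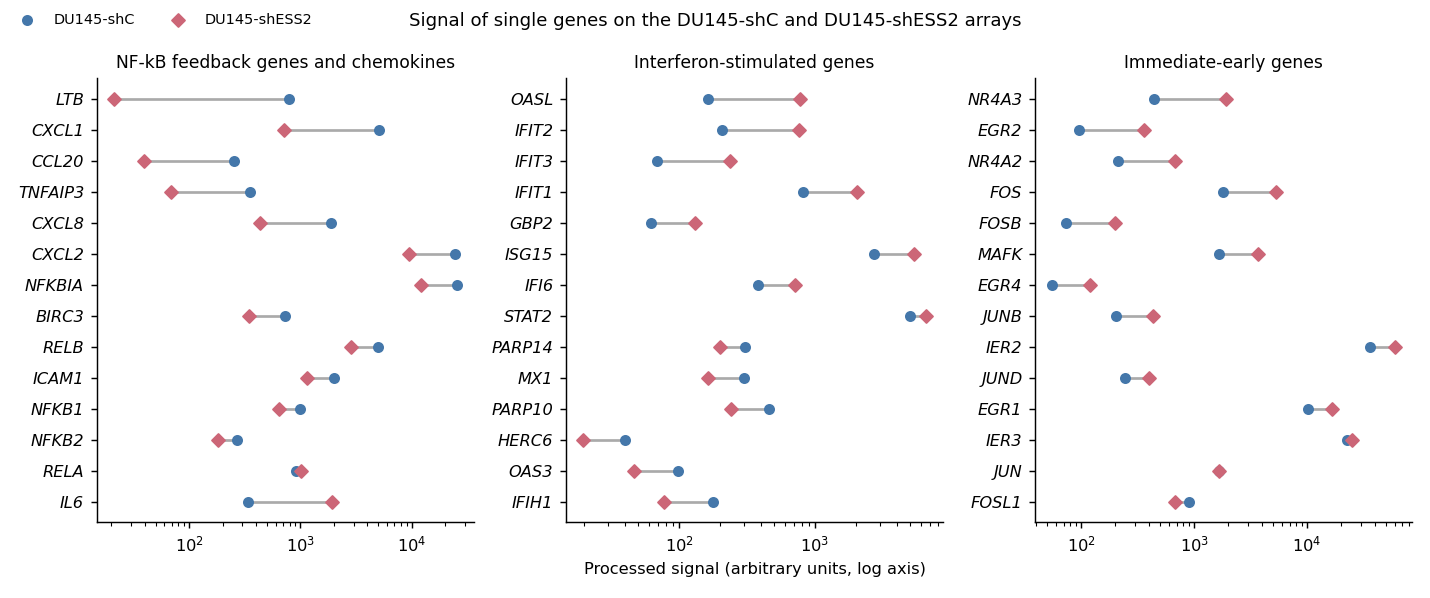
Processed signal (log axis, arbitrary units) of single genes on the DU145-shC array (circles) and the DU145-shESS2 array (diamonds), joined by a line, for NF-κB feedback genes and chemokines, interferon-stimulated genes and immediate-early genes. In the left panel the diamonds lie left of the circles except for RELA and IL6; in the middle panel OASL, IFIT1, IFIT2 and IFIT3 are higher and IFIH1, OAS3 and HERC6 lower in DU145-shESS2 cells; in the right panel JUN and FOSL1 are the members that are not higher.

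Cholesterol synthesis was the gene group with the largest share of genes past 2-fold among the 85 lists. Of 24 measured genes, 13 rose (54.2% against 1.75% of all genes), none fell and 23 were more than 1.5-fold higher, with a median log2 ratio of 1.02. The genes span the whole route from acetyl-CoA to cholesterol. At its start, ACAT2 had signals of 3870 and 7040 (0.82), and HMGCS1, which makes HMG-CoA, rose from 850 to 1900 (1.12). In the mevalonate section, MVK rose from 3720 to 8040 (1.07), MVD from 487 to 1250 (1.32) and IDI1 from 2020 to 4820 (1.21). PMVK, which encodes the kinase between MVK and MVD, was the exception, with signals of 2440 and 2290 (-0.13). In the squalene section, FDPS (14600 and 24300, 0.69), FDFT1 (4150 and 6970, 0.71) and SQLE (2560 and 4800, 0.87) stayed under 2-fold. In the sterol section LSS rose from 1040 to 2460 (1.20), MSMO1 from 107 to 299 (1.44), TM7SF2 from 968 to 2040 (1.04), SC5D from 76.2 to 160 (1.03) and DHCR7 from 8540 to 18900 (1.11). The members therefore rose at signals from under 100 to above 10000.

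Genes that control sterol supply moved with the enzymes. INSIG1, which retains SREBP in the endoplasmic reticulum when sterols are abundant and is itself an SREBP target, rose the most, from 1180 to 3640 (1.58). STARD4, a sterol carrier, rose from 82.2 to 207 (1.29), and the transcription factor gene SREBF2 had signals of 1100 and 1750 (0.63). The lysosomal cholesterol exporter genes NPC1 (1448 and 2474, 0.73) and NPC2 (18100 and 26000, 0.48) lay above 0 but within 2-fold. Fatty acid genes were higher to a lesser extent. Of 28 measured, 1 rose and 20 had a ratio above 0, with a median of 0.27. ACSS2, which makes acetyl-CoA from acetate, rose from 737 to 1630 (1.10), while FASN had signals of 4240 and 8250 (0.92) and FADS2 of 8770 and 17200 (0.93). SCD, the stearoyl-CoA desaturase, had signals of 1220 and 1340 (0.10). One form of the sterol regulatory element, TCACNCCAC, occurred in 1 of 18 cholesterol genes with a window, SREBF2, and in 1.15% of all windows, which says only that these letters are not in the other 17 windows. With normexp 11 of the 24 genes rose, and with each of the other alternatives 13 or 14.

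Genes of amino acid supply under the control of ATF4, the transcription factor of the integrated stress response, were lower. Of 26 measured, 4 fell (15.4% against 1.72% of all genes), none rose and 11 were more than 1.5-fold lower, with a median of -0.48. ASNS went from 35000 to 13800 (-1.38), but its highest probe stood at 0.04 and the mean of its 3 probes at -0.44, which is within 2-fold. SLC7A11 (the cystine transporter) went from 3170 to 1260 (-1.37), STC2, a secreted glycoprotein, from 379 to 138 and the mitochondrial enzyme gene PCK2 from 591 to 245 (-1.31, with another probe at -0.77). The serine pathway gene PSAT1 had signals of 29700 and 16400 (-0.90), and ATF4 itself of 61700 and 50300 (-0.33). Genes of the unfolded protein response did not follow, as 16 of 25 had a ratio above 0. The kinase gene EIF2AK3 (PERK) rose from 57.9 to 120 (1.01), and the chaperone gene HSPA5 had signals of 6680 and 7130 (0.05). VEGFA and VLDLR, which are also on the ATF4 list, had ratios of 0.58 and 0.57.

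Genes of the hypoxia response were mixed: of 24, 3 rose, 2 fell and 17 had a ratio above 0. LOX (lysyl oxidase, a collagen cross-linker) rose from 21.7 to 80.7, NDRG1 from 2680 to 7260 and the histone demethylase gene KDM3A from 39.8 to 83.9, while ADM (the vasodilator adrenomedullin) fell from 1877 to 719. Of 21 glycolysis genes 16 had a ratio above 0, and PFKFB4 rose from 172 to 412. All 10 measured metallothionein and zinc export genes had a ratio below 0, with a median of -0.61, and none passed 2-fold. MT2A had signals of 92100 and 52200 (-0.86) and MT1F of 1170 and 623 (-0.95). Metallothionein genes are near-identical copies, so their probes may read each other's transcripts and the 10 values are not independent.

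Genes of cell division had ratios slightly below 0 in nearly every member. Of 61 mitosis genes, 60 had a ratio below 0 (98.4% against 53.4% of all genes), 26 were more than 1.5-fold lower (42.6% against 7.50%) and the median was -0.53. PTTG1 (securin) went from 15100 to 7660 and ESPL1 (separase, the protease that securin restrains) from 2300 to 1170, both at -1.02 and the only members past 2-fold. With scaling to the median neither passed it. HMMR (3340 and 1740), NUF2 (755 and 400), UBE2C (8340 and 4640) and CDK1 (3726 and 2153) followed at -0.98, -0.96, -0.89 and -0.83. The proliferation marker MKI67 had signals of 1230 and 1050 (-0.27), and the mitotic factor gene FOXM1 of 852 and 761 (-0.20). The phosphatase gene CDC25B was the 1 member above 0, at 0.35. Of 47 DNA replication genes, 44 had a ratio below 0 and none passed 2-fold, with a median of -0.36. The licensing factor gene CDT1 had signals of 1670 and 963 (-0.83), MCM3 of 9890 and 6380 (-0.67) and PCNA of 3310 and 2420 (-0.49), whereas E2F1 had signals of 659 and 917 (0.44). In bulk RNA, fewer dividing cells and less RNA per dividing cell cannot be told apart. Of 36 DNA repair genes, 27 had a ratio below 0, among them BRCA1 (729 and 427, -0.81).

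Among 17 G1 cyclins and CDK inhibitors none passed 2-fold, but 5 were more than 1.5-fold higher. They were CDKN2B (19.5 and 36.4, 0.86), CDKN1B (p27, 721 and 1280, 0.79), CDKN1C (1310 and 2080, 0.63), CDK6 (171 and 270, 0.62) and CDKN1A (p21, 30.1 and 47.5, 0.62, but 0.24 with normexp). CCND1 (cyclin D1) and MYC had ratios of 0.10 and 0.31.

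The cell cycle homology region TTTGAA, an element through which mitotic genes are repressed outside mitosis, was searched on both strands. It occurred in 36 of 52 mitosis genes with a window (69.2%), in 1 of 39 DNA replication genes (2.56%) and in 15.4% of all windows. The CCAAT box occurred in 38 of the 52 (73.1%) and in 35.7% of all windows. Mitosis genes with the region had a median log2 ratio of -0.54 and those without it of -0.55. The element is shown in 3 genes that encode core parts of the division machinery, with matched bases in capitals.
ESPL1 (chr12:53268256-53268285, + strand, log2 ratio -1.02): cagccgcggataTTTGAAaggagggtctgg
CCNB2 (chr15:59105105-59105134, + strand): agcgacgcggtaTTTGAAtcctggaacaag
PLK1 (chr16:23678848-23678877, + strand): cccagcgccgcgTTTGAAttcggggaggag

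Genes of ribosome production had ratios slightly below 0, and genes of the spliceosome lay near 0. Of 36 ribosome biogenesis genes, 34 had a ratio below 0, with a median of -0.29, and none passed 2-fold. The lowest was DKC1 (dyskerin, a pseudouridine synthase) at -0.74, with signals of 3500 and 2150. Of 83 cytoplasmic ribosomal protein genes, 78 had a ratio below 0, with a median of -0.19, and of -0.05 with quantile normalization. Host genes of small nucleolar RNAs, whose transcripts begin with the same pyrimidine-rich start as ribosomal protein mRNAs, had a ratio below 0 in 39 of 54 cases, counted together with microRNA host genes, with a median of -0.16, 1 rise and no fall. The lower ones included GAS5 at 56300 and 32500 (-0.83), SNHG8 at 9940 and 5230 (-0.97) and SNHG1 at 8740 and 5630 (-0.67). In the mitochondrion, 58 of 77 ribosomal protein genes and 63 of 82 oxidative phosphorylation genes had a ratio below 0, with medians of -0.13 and -0.12, the latter moving to -0.05 with quantile normalization. The exceptions past 2-fold were MRPS6, from 6569 to 17814 (1.40), and COX7C (1.32). The 55 core spliceosome genes, among which ESS2 protein is found in cells, had a median of -0.03, with none past 2-fold and a range from -0.78 (ISY1) to 0.50 (AQR). The 37 SR and hnRNP proteins had a median of -0.07, and none passed 2-fold. Splicing itself cannot be read from these values, as each gene is represented by 1 probe.

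**Figure D3:**
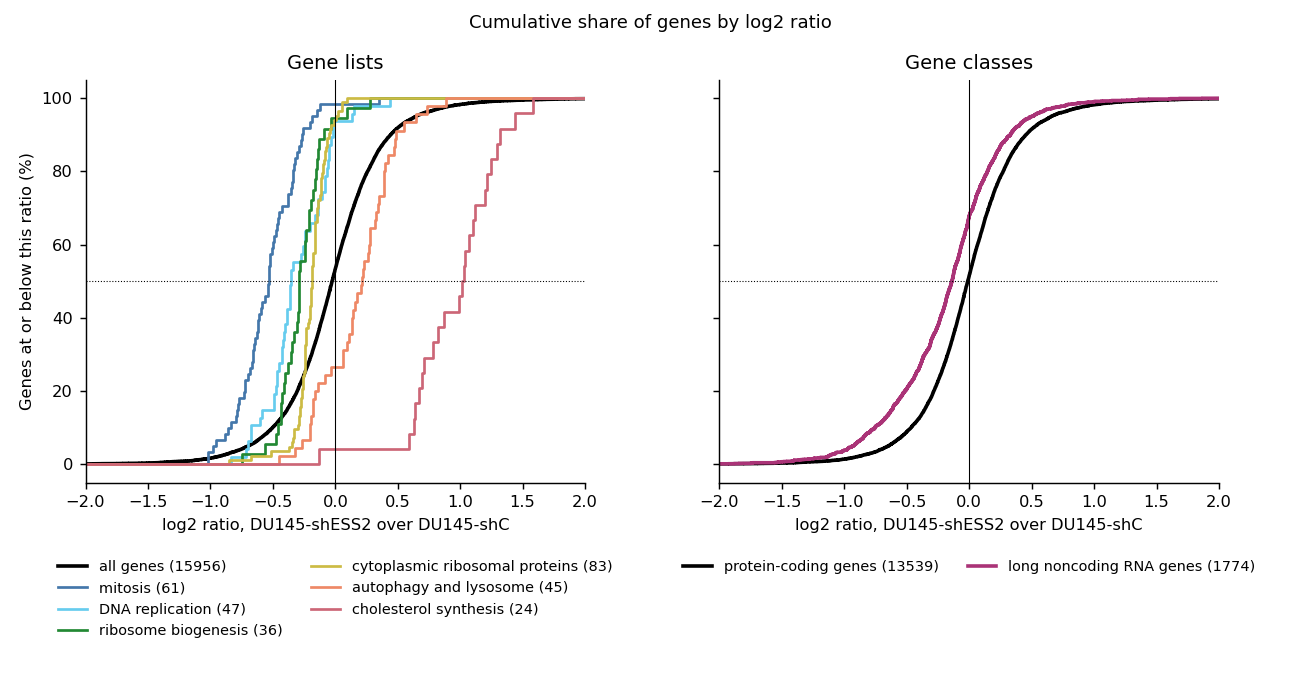
Cumulative share of genes (percent) by log2 ratio of DU145-shESS2 over DU145-shC, on the left for all 15956 genes and 6 gene lists with the number measured in brackets, on the right for protein-coding and long noncoding RNA genes. The curves of mitosis (median -0.53), DNA replication, ribosome biogenesis and cytoplasmic ribosomal proteins lie left of that of all genes (median -0.03), the curves of autophagy and lysosome and of cholesterol synthesis (1.02) lie right of it, and long noncoding RNAs lie left of protein-coding genes.

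Lysosome and autophagy genes lay above 0 in 33 of 45 cases, with a median of 0.22 and none past 2-fold. TFEB, the transcription factor of lysosome genes, had signals of 1700 and 2740 (0.65), and MAP1LC3A, an autophagosome membrane protein, of 102 and 194 (0.89). Semaphorins, plexins and netrins, guidance cues and their receptors, had a ratio above 0 in 23 of 24 cases, with a median of 0.37. NTN4 (netrin 4) rose from 141 to 471 (1.70). Insulin and IGF genes were above 0 in 16 of 21 cases, and IGFBP4, which binds IGF in the extracellular space, rose from 60.6 to 200 (1.68).

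Genes of cell junctions went both ways. Of 28 tight junction and desmosome genes, 5 fell (17.9% against 1.72% of all genes) and 1 rose. The claudins, which set the permeability of tight junctions, went both ways: CLDN2 fell from 191 to 50.4 (-1.96), CLDN7 from 233 to 62.8 (-1.93), CLDN11 from 1340 to 393 (-1.81) and CLDN1 from 779 to 303 (-1.40), while CLDN4 rose from 983 to 4720 (2.22). DSP (desmoplakin, which ties desmosomes to keratin) fell from 2450 to 1030 (-1.29), and JUP (plakoglobin) had signals of 1350 and 2650 (0.93). Among 24 epithelial and mesenchymal state genes, the falls were OVOL2, EPCAM, LCN2 and SPINT1 (a protease inhibitor, from 344 to 109), and the rises S100A4 and the surface glycoprotein gene CD24 (from 7690 to 19100, 1.27). CDH1 (E-cadherin) and VIM (vimentin), the usual markers of the epithelial and mesenchymal state, had ratios within 0.01 of 0 and of -0.18, and ZEB1 and SNAI2 of 0.32 and 0.27. None of 21 keratins passed 2-fold.

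The chains of the laminin that anchors epithelia to their basement membrane were uneven: LAMB3 went from 15100 to 6400 (-1.28), whereas LAMA3 had signals of 1070 and 1870 (0.77). NID2 (nidogen 2, a basement membrane linker) rose from 235 to 486 (1.01). ITGB2, the leukocyte integrin chain, rose from 439 to 1280, and ITGB4, the laminin receptor chain of hemidesmosomes, had signals of 614 and 349 (-0.86). Of 24 collagens none passed 2-fold. Of 40 matrix proteases and inhibitors 4 rose, among them ADAM8 (from 1820 to 4650, 1.31, but 0.76 over the mean of its 3 probes), and MMP1, a collagenase, fell from 6700 to 2884 (-1.26). CEMIP, which degrades hyaluronan, rose from 50.5 to 262 (2.33).

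Some genes of several developmental pathways passed 2-fold, in both directions, and receptor genes are named here for the NOTCH and EGF pathways only. In the NOTCH pathway, 3 of 20 genes fell and none rose, the ligand gene JAG1 from 20.1 to 8.39 (-1.30) and the targets HEY1 from 80.2 to 30.2 (-1.45) and NRARP from 1470 to 473 (-1.68). HES7, a further target family member, fell from 1440 to 433 (-1.77). With normexp 1 of the 3 list members passed 2-fold. The receptor genes NOTCH1, NOTCH2 and NOTCH3 had ratios of 0.03, 0.09 and 0.20, and HES1 of 0.19. In the WNT pathway, RSPO3 fell with the ligand genes WNT10A (from 34.6 to 16.6, -1.10) and WNT10B (-1.05), AXIN2, a feedback target, had signals of 54.3 and 33.1 (-0.75), and the secreted antagonist gene SFRP1 rose from 375 to 869 (1.17). In the BMP pathway, BMP6 fell from 116 to 35.9 (-1.73) and its extracellular modulator BMPER from 293 to 120 (-1.33), BMP1, a procollagen protease, rose from 122 to 313 (1.32), and the target ID3 had signals of 2570 and 5220 (0.98). In the TGF-β pathway GDF15, a stress-induced family member, rose from 311 to 760 (1.25). In the EGF family the ligand gene BTC fell from 87.8 to 42.9 (-1.07), with EGFR at -0.27. AJUBA, a LIM protein of the Hippo pathway, fell from 1550 to 746 (-1.10), while CCN1 and CCN2, the usual YAP targets, had ratios of -0.14 and 0.51. With normexp WNT10A (-0.32), WNT10B (-0.68), BMPER (-0.96), BTC (-0.53) and AJUBA (-0.97) were within 2-fold.

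Of 32 nuclear receptors 4 rose and 1 fell. The rises included the 3 NR4A genes, and the fall was VDR, the vitamin D receptor, from 549 to 272 (-1.05). In vitamin D metabolism, both the activating hydroxylase gene CYP27B1 (from 391 to 195, -1.04) and the inactivating one CYP24A1 (from 381 to 153, -1.36) fell, while CAMP, a vitamin D target in human cells, rose. In the retinoid pathway, RDH10 (which makes retinal, from 403 to 1240, 1.58) and CYP26A1 (which breaks retinoic acid down, from 27.8 to 68.0, 1.25) rose. With normexp VDR (-0.90), CYP27B1 (-0.76) and CYP26A1 (0.58) were within 2-fold. ALDH1A3, which makes retinoic acid, had signals of 1390 and 908 (-0.65). Among prostaglandin genes the synthase gene PTGES rose from 75.7 to 261 (1.75) and the receptor gene PTGER2 from 22.7 to 51.6 (1.14).

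Chromatin genes stayed within 2-fold with few exceptions. None of 33 chromatin remodelers passed it, including CHD1 (361 and 422, 0.18) and BAZ1B (2880 and 2330, -0.35), a partner of ESS2. Of 75 histone and DNA modifying enzymes KDM3A rose, and TET1, a 5-methylcytosine dioxygenase, had signals of 636 and 1220 (0.90). Of 75 histone genes 51 had a ratio below 0 and 1 fell, H4C16, from 20.4 to 9.78. Histone genes too are near-identical copies, and their probes may read each other. Of 27 HOX genes 22 had a ratio below 0, and the falls were HOXA11 (-1.02) and HOXA7 (from 152 to 78). Among genes next to ESS2 on 22q11, CDC45 (4130 and 3080), RANBP1 (18000 and 14100), DGCR8 (411 and 364) and DGCR2 (3610 and 4770) had ratios of -0.46, -0.39, -0.22 and 0.36. BCL2 family and caspase genes included 2 falls of 31, BIRC3 and the pro-apoptotic HRK (from 219 to 86.5, -1.38).

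Long noncoding RNAs lay lower than protein-coding genes. Of 1774 measured, 1203 (67.8%) had a ratio below 0, 68 fell (3.83%) and 17 rose (0.958%), with a median of -0.14. Of the 13539 protein-coding genes, 51.5% had a ratio below 0, 1.45% fell and 1.83% rose, with a median of -0.01. The median mean signal of long noncoding RNAs was 60.4 and that of protein-coding genes 450, and the part of brightness in the difference was not tested. From the dimmest to the brightest of the 4 bins of signal, the share of long noncoding RNAs below 0 was 62.3%, 72.4%, 80.9% and 78.4%, against 51.5%, 49.7%, 49.6% and 55.1% of protein-coding genes. Among 555 antisense RNAs, 26 fell and 6 rose, with a median of -0.18, and of -0.09 with normexp. For 418 long intergenic RNAs these medians were -0.12 and -0.05. HSD11B1-AS1 went from 1080 to 205 (-2.44) and DCST1-AS1 from 2500 to 697. The bright nuclear RNAs NEAT1 and MALAT1 had ratios of 0.05 and 0.53, and MIR210HG, the host of a hypoxia-induced miRNA, rose from 44.4 to 117 (1.36). A further 6540 probes well above background on both arrays have no symbol here, of which 87 were more than 2-fold higher and 108 lower.

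A set of genes was well above background on 1 DU145 array only, 368 in DU145-shC and 544 in DU145-shESS2 cells. With the same replacement of the dim value, 142 of the former were at least 2-fold lower and 124 of the latter at least 2-fold higher in DU145-shESS2 cells. The largest bounds for falls were those of GKN1 (gastrokine 1, a stomach mucosal protein), at least 22.5-fold with signals of 178 and 3.74, and of the antisense RNA GNA14-AS1, at least 14.4-fold with signals of 114 and 1.82, followed by CSF2, MIR3142HG and SAA2. Large bounds for rises were those of TMCO5B (at least 15.6-fold, 2.28 and 139), KIR2DS4 (at least 11.5-fold, 2.09 and 102), UOX (at least 10.8-fold, 2.34 and 96.1) and SLC25A48 (at least 9.23-fold, 3.06 and 82.1). KIR2DS4 encodes a natural killer cell receptor and UOX is a pseudogene of urate oxidase in humans. Each of these values rests on 1 probe.

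**Figure D4:**
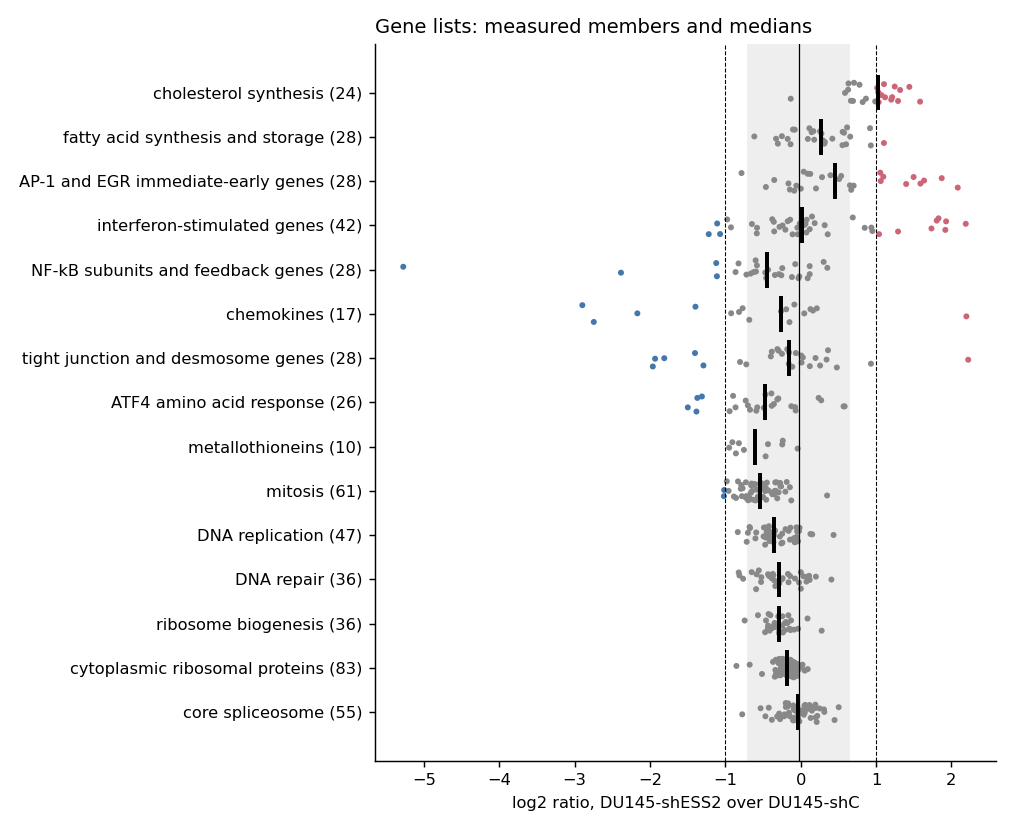
Log2 ratio of DU145-shESS2 over DU145-shC of every measured member of 15 gene lists (number measured in brackets), with members more than 2-fold higher or lower in colour and the list median as a black bar. The grey band holds the middle 90% of all genes (-0.70 to 0.65) and the thin line their median (-0.03); the medians run from 1.02 for cholesterol synthesis to -0.61 for metallothioneins.

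The same contrast in PC3 cells is given beside that in DU145 cells as values only, since the difference between the lines was not tested and each line lies on a slide of its own. Cholesterol synthesis had a median of 1.02 in DU145 and 0.37 in PC3, mitosis of -0.53 and -0.07, DNA replication of -0.36 and -0.36, ribosome biogenesis of -0.29 and -0.32, and the ATF4 list of -0.48 and -0.20. Interferon-stimulated genes had a median of 0.02 in DU145, with 42 measured, and of -1.39 in PC3, with 54 measured. Of the 438 genes past 2-fold in DU145 that were measured in PC3, 52 were past 2-fold in the same direction there and 29 in the opposite direction. Of all genes measured in PC3, 3.31% were more than 2-fold higher and 3.44% more than 2-fold lower. Genes past 2-fold in the same direction in both included LTB (-5.27 and -3.32), CCL20 (-2.75 and -3.23), CXCL1 (-2.90 and -1.56), LCN2 (-2.55 and -3.25), IL6 (2.48 and 2.62) and IL24 (2.37 and 3.41).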

How the data were processed

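RNA of DU145-shC and DU145-shESS2 cells was measured on 1-colour Agilent arrays, 1 array for each condition. The authors deposited Agilent Feature Extraction scanner output holding the processed signal, a background-subtracted intensity for each spot in arbitrary units, together with flags for spots well above background (release 12.0.3.1 for DU145 and 12.1.0.3 for PC3, per the file headers). A table of scaled intensity values that the authors also deposited equals the processed signal times a constant for each array. Both DU145 arrays share 1 slide and the PC3 arrays another, so line and slide cannot be told apart. Groups were taken from the sample labels.

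Control spots and flagged outlier spots were left out, spots of a probe were averaged, and log2 of the processed signal was scaled by subtracting each array's 75th percentile. Probes well above background on both DU145 arrays were kept, and a gene took its brightest probe. Symbols came from RefSeq, matched through the accessions in the scanner files, and a probe without a match was given no symbol. A difference past 2-fold was counted, with no test, since there are no replicates. A gene well above background on 1 array only was given a bound, with the dim value replaced by the lowest signal well above background where that was higher. Signals are as deposited, whereas ratios were scaled.

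Members and gene lists were chosen with earlier results of these data known. Genes were named by a rule: the 15 largest rises and falls with all probes in 1 direction, the 10 largest above the 75th percentile on both arrays, up to 4 in each direction in each list past 2-fold or else the 2 brightest, ESS2 with reference and study panel genes, and the 5 largest bounds in each direction. Other genes in the text, among them TNF, were named after their values were seen. Alternatives were median scaling, quantile normalization, normexp background correction (offset 50), 2 other filters on dim probes, the mean of a gene's probes, the brightest probe over all 4 arrays, outlier spots kept, and the scaled values of the authors. A few genes that the rule names are not reported here. Columns of samples outside the series numbered 0. The scripts were tested on simulated data. Normexp was run with limma 3.58.1 under R 4.3.3, and all else with pandas 2.3.3 and numpy 2.4.6 under Python 3.11.15, with figures from matplotlib 3.10.9.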

Additional observations from a re-analysis of the deposited data

Results flagged for a closer look

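Of the named genes past 2-fold in DU145 cells, 126 were measured in PC3 cells, and 12 of those reported here were past 2-fold in the opposite direction there. With 1 array for each condition in each line, none of these differences was tested. The log2 ratio of the knockdown over the control is given for DU145 first and for PC3 second.

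The antiviral IFITM genes were higher in DU145-shESS2 cells and lower in PC3-shESS2 cells, with IFITM1 at 1.92 and -5.02, IFITM2 at 1.81 and -1.74 and IFITM3 at 1.93 and -1.82. In PC3 control cells IFITM1 gave a signal of 30100, against 73 in DU145 control cells. S100A9, a subunit of calprotectin, stood at 1.75 and -2.51, with control signals of 15.3 and 50400. These 3 IFITM genes and S100A9 thus had a lower control signal in DU145 than in PC3 cells, as deposited. HP stood at 2.18 and -1.30, PTGES at 1.75 and -2.15, ITGB2 at 1.504 and -1.57 and HLA-DMA at 1.19 and -1.22. WFDC21P, a pseudogene of the whey acidic protein family, stood at 1.84 and -3.48, and C11orf86 at 1.78 and -1.13. In the other direction, TNFAIP3 stood at -2.38 and 1.55, with signals of 352 and 69.3 in DU145 and of 252 and 812 in PC3. The laminin chain gene LAMB3 stood at -1.28 in DU145 and at 1.25 in PC3.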

How the results depend on the processing

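With 1 array for each condition, the spread between cultures is unknown, and the spread between spots on 1 array is the only error at hand. The setting that moved most values was normexp background correction, which adds 50 to every signal and so draws dim ratios towards 0. Under it 134 genes were more than 2-fold higher and 73 lower, in place of 279 and 274, so that 64.7% rather than 50.5% of the genes past 2-fold were higher, and ESS2 stood at -1.13 in place of -2.35. Of the 553 genes past 2-fold, 204 were still past it, and of the 155 named ones 90. Named genes that lost it included LAD1 (-0.85), TMOD1 (0.42), HP (0.89), S100A9 (0.52), CXCL14 (0.66), NR4A1 (0.77), SAA1 (-0.85), TNFRSF9 (-0.67), JAG1 (-0.30), HEY1 (-0.80), EIF2AK3 (0.63), H4C16 (-0.23), HOXA11 (-0.70), HOXA7 (-0.72), HRK (-0.89), IKBKE (-0.32), KDM3A (0.61), LOX (0.83), MIR210HG (0.72), NID2 (0.88), PFKFB4 (0.98), PSMB9 (-0.88), PTGER2 (0.38), SLC2A10 (0.99), SLC40A1 (0.65) and STARD4 (0.96). Keeping probes well above background on at least 1 array, or all probes, gave 408 genes higher and 423 lower, as more dim genes were counted. Median scaling gave 298 and 243, quantile normalization 300 and 246, the mean of probes 269 and 262, the brightest probe over 4 arrays 277 and 270, outlier spots kept 280 and 274, and the authors' scaled values 296 and 251. ESS2 was lower in each of them. None of the 155 named genes turned direction under any alternative. RAP1GAP and SYNE1 stood at 0.10 and 0.54 with the brightest probe over 4 arrays, and ASNS, ADAM8, HERC6 and SLC8A1 at -0.44, 0.76, -0.75 and 0.80 with the mean of probes. Quantile normalization put the median of cytoplasmic ribosomal proteins at -0.05. The median of the interferon-stimulated genes lay between -0.13 and 0.05, so it has no direction, whereas those of cholesterol synthesis (0.98 to 1.05) and mitosis (-0.54 to -0.49) kept theirs. No paired analysis was possible because each condition has 1 array.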

Other observations

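Of 232 solute carriers, 5 rose (2.16% against 1.75% of all genes) and 1 fell (0.431% against 1.72%), so the share of rises was near that of all genes. SLC40A1 (ferroportin, the iron exporter) stood at a log2 ratio of 1.60, SLC5A3, which imports inositol, at 1.59, the sodium-calcium exchanger gene SLC8A1 at 1.53 on its brightest probe and 0.08 on another, and the glucose transporter genes SLC2A10 and SLC2A14 at 1.21 and 1.18. The fall was that of SLC7A11. None of 30 ABC transporters and none of 65 potassium, sodium and calcium channels passed 2-fold.

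Some further genes past 2-fold belonged to none of the groups described. CITED2, a transcriptional co-regulator that restrains hypoxia factors, went from 3620 to 12600 (1.76), and its probes stood at 1.54 and 1.76. SFTPB (surfactant protein B) went from 86.5 to 453 (2.35), with another probe at 2.84. PAG1, a membrane adaptor for Src family kinases, went from 114 to 405 (1.79), with another probe at 2.15. VEPH1 went from 153 to 51.1 (-1.62), with another probe in the same direction. The gastrokine genes moved apart, as GKN2 went from 14.9 to 58.8 (1.94) while GKN1 was well above background in DU145-shC cells only.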
